A study of Mus musculus with 3 samples.

Results

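Promoters of genes for DNA replication and DNA repair were 85 of the 7176 captured promoter fragments with a position. They were chosen by name, by a rule that uses no measured value. A fragment was taken when a gene in its name began with Orc, Mcm, Gins, Pola, Prim, Pold, Pole, Rfc, Rpa, Lig, Ercc, Msh, Rad, Xrcc or Fanc, with a digit after Orc, Mcm, Rpa, Lig and Rad, and names listed for more than 1 fragment were left out. The 85 fragments belonged to 84 genes on 19 chromosomes, since Mcm10 was captured at 2 fragments. A name can hold several genes at a shared promoter, and each gene gives the name a further chance to be chosen. Such names made up 29 of the 85 (34.1%), compared with 14.0% of all captured fragments.

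Contacts were measured by nuclear-titrated Capture-C, in which nuclei are digested with the enzyme DpnII (which cuts at GATC), fragments lying close together are ligated, and the ligation products of chosen fragments, called viewpoints, are enriched with probes. All 3 libraries formed 1 group of mouse erythroid cells. The cells came from spleens of F1 hybrids of C57BL/6 and CBA/J treated with phenylhydrazine, which destroys red cells and drives erythroid expansion in the spleen. Per the labels, 3 doses were given 12 hours apart and the mice were killed on day 5. Spleens then held more than 80% CD71+ ter119+ cells, and cells carrying the surface marker ter119 were selected with magnetic beads. The table analysed here holds no control group, second cell type or expression values, so the cell type was not checked against its markers. Since the table has no column names, libraries a, b and c stand for its value columns from left to right.

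A cell copies its genome once per division. The origin recognition complex (Orc genes) and the Mcm helicase are loaded on origins before S phase, and the GINS subunits then join the helicase. Polymerase alpha with primase starts each strand, after which replication factor C (Rfc genes) loads the sliding clamp for polymerases delta and epsilon, RPA coats single strands, and ligases seal nicks. Excision repair (Ercc, Xrcc1), mismatch repair (Msh), recombination and end joining (Rad52, Rad54l, Xrcc4 to Xrcc6) and the Fanconi anemia genes, which act on crosslinks, mend damage. Many of these genes are transcribed at the entry to S phase under E2F factors, and late erythroid progenitors divide quickly. Of the 85 names, 5 were not placed under any of these roles and are called matched by spelling (Mcm3ap, Poldip2, Poldip3, Ercc6l and Ercc6l2).

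To compare promoter sequence, 4 words of an E2F site were searched on both strands, namely TTTCCCGC, TTTGGCGC, TTTCGCGC and TTTGCCGC, and neighbouring matches may overlap. At least 1 word was present in 28 of the 85 captured fragments (32.9%) and in 711 of all 7176 (9.91%). The fragments of these genes were somewhat shorter than the rest, with a median of 621 bp (79 to 2779 bp) and 742 bp for all, and their median GC content was 57.5%, compared with 59.2%. By role, words lay in 9 of 15 origin licensing fragments, 5 of 8 Fanconi anemia fragments and 7 of 18 fragments of elongating polymerases, clamp loader, RPA and ligases. They lay in 3 of 7 fragments of GINS, polymerase alpha and primase, 3 of 13 of excision and mismatch repair, 1 of 19 of double-strand break, checkpoint and cohesin genes, and 0 of the 5 matched by spelling. CCAAT, the word of NF-Y sites, lay in 63.5% of these fragments and 59.4% of all, and the NRF1 motif in 2.35% and 3.11%. These matches describe sequence letters and no binding was measured.

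The promoters of 5 genes are printed from 250 bases before to 50 bases after the RefSeq start, on the strand of the gene, with the words in capitals. They were taken from those whose captured fragments hold E2F words and whose viewpoints had called contacts, and whose printed stretch also holds a word. Mcm5, Mcm7 and Mcm8 encode Mcm proteins, Rfc3 a clamp loader subunit and Lig1 the ligase that joins Okazaki fragments. All letters of the Mcm5, Mcm8, Rfc3 and Lig1 promoters lay within the captured fragment, as did 183 of the 300 bases of Mcm7. In Mcm7 the captured bases include TTTCGCGC but not GCGGGAAA. In GRCm38.p6 they are at chr8:75109259-75109558 (plus strand), chr5:138171834-138172133 (minus), chr2:132815891-132816190 (plus), chr5:151651159-151651458 (minus) and chr7:13278576-13278875 (plus), in the order printed. Rfc3 carried 2 such words 2 bases apart, and in Mcm5 2 of the words overlap.
Mcm5: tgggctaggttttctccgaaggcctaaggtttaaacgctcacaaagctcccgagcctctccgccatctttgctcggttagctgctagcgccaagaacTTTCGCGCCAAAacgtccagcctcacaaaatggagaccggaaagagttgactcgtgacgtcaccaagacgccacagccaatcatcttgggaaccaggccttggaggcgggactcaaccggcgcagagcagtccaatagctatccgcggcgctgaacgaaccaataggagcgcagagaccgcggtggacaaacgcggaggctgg
Mcm7: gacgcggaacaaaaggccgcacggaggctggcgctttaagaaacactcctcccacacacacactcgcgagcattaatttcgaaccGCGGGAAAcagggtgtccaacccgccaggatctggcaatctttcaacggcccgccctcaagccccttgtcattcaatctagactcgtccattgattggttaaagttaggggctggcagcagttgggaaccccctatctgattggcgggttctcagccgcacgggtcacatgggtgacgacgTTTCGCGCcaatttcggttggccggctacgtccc
Mcm8: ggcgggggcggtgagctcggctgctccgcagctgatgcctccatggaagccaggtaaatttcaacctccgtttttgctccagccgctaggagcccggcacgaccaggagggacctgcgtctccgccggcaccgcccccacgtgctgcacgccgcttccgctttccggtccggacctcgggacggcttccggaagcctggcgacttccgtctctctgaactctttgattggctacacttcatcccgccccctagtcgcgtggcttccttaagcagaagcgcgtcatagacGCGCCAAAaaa
Rfc3: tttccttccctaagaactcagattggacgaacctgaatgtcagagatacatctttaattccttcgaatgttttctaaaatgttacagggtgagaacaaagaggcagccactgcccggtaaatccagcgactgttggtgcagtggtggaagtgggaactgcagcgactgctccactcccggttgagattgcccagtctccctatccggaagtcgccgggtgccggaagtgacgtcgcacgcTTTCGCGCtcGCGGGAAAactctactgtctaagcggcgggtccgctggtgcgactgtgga
Lig1: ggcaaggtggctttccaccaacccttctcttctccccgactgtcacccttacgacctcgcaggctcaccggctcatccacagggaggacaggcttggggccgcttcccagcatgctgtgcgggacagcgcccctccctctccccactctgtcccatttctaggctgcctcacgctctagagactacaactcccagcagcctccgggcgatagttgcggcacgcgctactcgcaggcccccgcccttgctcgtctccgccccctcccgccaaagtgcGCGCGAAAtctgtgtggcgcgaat

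The depth of these viewpoints was close to that of the whole table. The median was 1395 events in library a, 2594 in b and 2535 in c, compared with 1377, 2561.5 and 2532 for all viewpoints. An event is a unique ligation between the viewpoint and another fragment of its chromosome, and the depth sets the precision of each value below. Pola1, the catalytic subunit of polymerase alpha on chromosome X, was deepest with 26697, 53220 and 52771 events. Rad54l, a recombination translocase, followed with 5851, 9789 and 9490, and Lig3, a ligase of single-strand break repair, with 4383, 8881 and 8860. The other deepest viewpoints of their role were Mcm2 (15205 events), Ercc4 (17211), Fancl (16470) and Mcm3ap (13766). In total 78 of 85 viewpoints reached the minimum of 1000 events used for profiles, as did 6718 of all 7176. The 7 below it were Rfc2 (394 events), Mcm10_a (417), Msh6 (444), Rfc1 (533), Poldip3 (709), Rfc4 (923) and Fancg (949), so 3 of the 5 clamp loader subunits could not be tested. The shallowest that were tested were Ercc2 (1213), Rad18 (1440) and Rad52 (1710). Both Mcm10 fragments lie within 1 kb of each other, and the shorter one, of 104 bp, had 1780 events while its neighbour of 258 bp had 417.

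**Figure D1:**
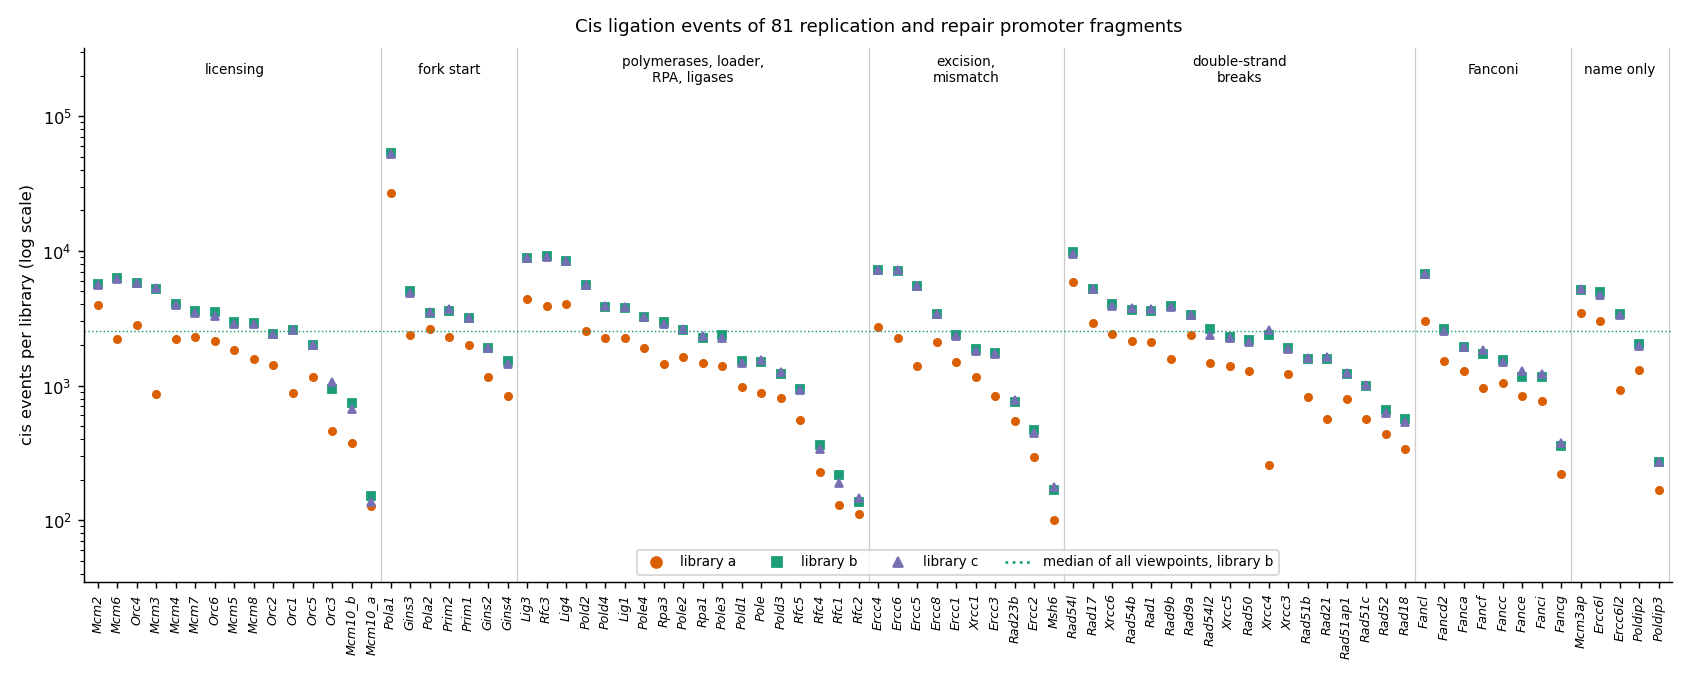
Cis events per viewpoint (log axis) for 81 of the replication and repair promoters, 1 point per library, grouped by role and ordered by summed events, with the median of all viewpoints in library b as a dotted line. Pola1 lies above all others with 132688 events in the sum of libraries, and library a lies lowest at each viewpoint, furthest at Xrcc4.

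Library a held fewer events than b in every length class of captured fragment. The median ratio of a to b was 0.623 for the 18 fragments under 300 bp, 0.626 for the 23 from 300 bp, 0.583 for the 22 from 600 bp and 0.485 for the 22 of at least 1200 bp, where it ranged from 0.109 to 0.612. For all viewpoints the medians of the shortest and longest class were 0.639 and 0.502. Xrcc4, an end-joining factor, had 259 events in a and 2384 in b, Mcm3 had 869 and 5169, and Ercc5, a repair nuclease, had 1395 and 5525. The counts of b and c differed by no more than sampling noise (chi-square per degree of freedom of 1.00 over 5259 windows), while a differed slightly from b (1.12) and from c (1.10). The mean of b and c was therefore counted as 1 sample beside library a in each SD (n = 2). The difference between b and c does not enter such an SD, which can understate the spread of the 3 libraries.

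Contacts within 100 kb of the viewpoint made up a median of 24.3% of events in library a, 21.5% in b and 21.9% in c over the 78 tested viewpoints (23.0% ± 1.86, mean and SD, n = 2). Over all 6718 viewpoints the medians were 26.0%, 22.7% and 22.9%, a little higher than these viewpoints in each library. No test was made since viewpoints are not replicates. With the libraries together the medians were 21.89% for these viewpoints and 23.46% for all. With a minimum of 5000 events they were nearly equal, 21.76% for 54 of these viewpoints and 21.98% for all. The gap was wider than this in the other settings tried. The slope of contact against distance on log scales from 10 kb to 1 Mb was −0.88 for these viewpoints and −0.91 for all. With viewpoints weighted by their counts it was −0.85 for these and for all. GINS, polymerase alpha and primase had the highest median share of any role, 29.1%, and their 7 viewpoints ranged from 13.5% to 34.1%. Their lowest was Pola1, with 17.0%, 12.6% and 12.5% in a, b and c. Among the highest was Rad9a of the checkpoint clamp, captured at a fragment under 300 bp, with 42.6%, 37.6% and 35.9%. Lig1 had the lowest share, 10.5%, 10.5% and 9.11%, and Rfc3 had 13.3%, 11.2% and 12.1%. The value of Lig1 was 13.6% once the window sharing its sequence was left out, above the value of Rfc3 in each library.

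Windows of 5 kb with more contact than their distance predicts were called in 52 of 30789 windows tested around these promoters (0.169%), beside a background of 0.138% over all viewpoints (3677 of 2660523). The test was a negative binomial upper tail on the summed libraries with Benjamini-Hochberg adjustment over all windows, and a call also needed a ratio above 1 in each library. Counted by viewpoint, 20 of 78 had a call (25.6%), and the background was 25% (1679 of 6718). Both shares are near the background. The 52 windows were 30 without library b and 27 without library c, where fewer events were tested, and 45 without a. With the dispersion taken over all windows, 6 of the 20 viewpoints kept a call, and with the expectation scaled to the total of each viewpoint, an alternative chosen after seeing the data, 16 did. Called windows lay at a median of 377 kb from these viewpoints and 235 kb over all viewpoints, and 4 of 52 (7.69%) lay within 100 kb, compared with 20.8%. Of the 52 windows, 14 came from Rfc3 alone, 266 to 981 kb from it, and they count in this median and this share. Several called viewpoints hold another gene in their name, so their contacts cannot be assigned to the replication or repair gene alone. They include Orc4 (with Mbd5), Orc5 (6030443J06Rik), Mcm4 (Prkdc), Mcm7 (Ap4m1), Mcm8 (Trmt6), Rpa3 (Umad1) and Lig1 (6330408A02Rik). The same holds for Lig3 (Gm11423), Fancf (Gas2), Rad1 (Brix1) and Rad17 (Taf9 and Ak6). By role, calls were made at 7 of the 14 origin licensing viewpoints tested, 4 of 15 of elongating polymerases, clamp loader, RPA and ligases, 3 of 7 Fanconi anemia, 5 of 19 double-strand break, checkpoint and cohesin, 1 of 12 excision and mismatch repair, and 0 of 7 of GINS, polymerase alpha and primase.

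Rfc3 had the most called windows, and the calls with the lowest adjusted p lay in 2 stretches of chromosome 5. The first, chr5:152165001-152190000, lies 266 to 286 kb downstream of the viewpoint and overlaps exons of the lincRNA 1700028E10Rik and of D730045B01Rik, with no gene in the first of its 5 windows. It held 55, 125 and 145 events in libraries a, b and c where 49.0 were expected in all. The ratio was 6.63 (6.53 ± 0.216, mean and SD of a and of the mean of b and c). All 3 libraries were above 6 times the expectation, and the lowest adjusted p among them was 1.84e-05 (negative binomial test). The second, chr5:151470001-151500000, lies 956 to 981 kb away at the start of and within Pds5b, which encodes a cohesin partner. Its first called window lies outside any gene and the other 3 overlap Pds5b. The captured promoter of N4bp2l2 lies within 10 kb of the first 2 of them, so those contacts cannot be assigned to Pds5b alone. Together these 4 windows held 24, 72 and 43 events where 12.9 were expected, a ratio of 10.8. Single called windows outside both stretches had ratios of 6.33 to 10.6 on fewer events. The Rfc3 viewpoint lies near the end of the chromosome, with little sequence left on the upstream side, and its total in range was 1.56 times the expectation, compared with 0.903 to 1.15 for the middle 90% of viewpoints. With the scaled expectation the ratios were 4.26 and 6.92, and 3 of the 14 windows stayed called. The number of its called windows was 13 without library a, 9 without b and 6 without c.

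Brca2, a recombination gene whose promoter was also captured, contacted the same lincRNA stretch. It held 10, 26 and 26 events there from a distance of 840 kb, where 11.7 were expected, a ratio of 5.30 (5.09 ± 0.434). One window in it, chr5:152170001-152175000, was called from both viewpoints, with 19 events from Brca2 against 2.29 expected (adjusted p = 0.0415, negative binomial test). The pair was singled out after its values were seen. The fragment with most Rfc3 events in that window (2, 9 and 11) begins at chr5:152171019 of mm9 and is 1083 bases long, and its first 200 bases are printed on the plus strand to show the far end of this contact, with the DpnII site in capitals. They are followed by the start of the fragment at chr5:151475149 with 12 Rfc3 events in all, which is 532 bases long and lies in no annotated gene, in the called window that overlaps an exon of Pds5b.
Rfc3 partner, lincRNA stretch: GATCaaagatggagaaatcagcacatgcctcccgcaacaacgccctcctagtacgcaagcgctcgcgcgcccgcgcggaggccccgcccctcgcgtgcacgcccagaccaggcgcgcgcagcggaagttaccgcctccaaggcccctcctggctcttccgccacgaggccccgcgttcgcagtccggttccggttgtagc
Rfc3 partner beside Pds5b: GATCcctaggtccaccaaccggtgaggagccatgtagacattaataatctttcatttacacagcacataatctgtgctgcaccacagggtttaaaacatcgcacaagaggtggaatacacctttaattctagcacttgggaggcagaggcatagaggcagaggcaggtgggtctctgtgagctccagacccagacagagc

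Among the origin licensing genes, Mcm2 reached Sec61a1, which encodes the channel of the protein translocon. Its 4 called windows within chr6:88450001-88480000, 372 to 397 kb downstream, held 57, 87 and 77 events where 32.6 were expected, a ratio of 6.78 (6.74 ± 0.187), and 3 of them overlap Sec61a1 while the last lies in no gene. The ratios by library were 6.61, 7.25 and 6.49, and the lowest adjusted p was 7.23e-05 (negative binomial test). A further window in Kbtbd12, chr6:88500001-88505000, held 20, 24 and 30 events where 13.8 were expected. Orc5 contacted the shared promoter of Dnajc2, a chaperone, and Psmc2, a proteasome ATPase, at chr5:21285001-21295000, 764 to 769 kb downstream. It held 9, 14 and 17 events where 3.40 were expected, a ratio of 11.8 (11.9 ± 0.282, lowest adjusted p = 0.00322 by the negative binomial test). The ratios of Orc5 by library were 12.1, 10.0 and 13.5, a wider spread than this SD. A window beside Pmpcb, a mitochondrial peptidase gene, held 4 events in each library where 0.653 were expected. Mcm2 had 3, 2 and 3 called windows in place of 5 without a, b and c. The Mcm2, Orc5 and Rfc3 viewpoints were the 3 of 20 with a call in each of the 13 alternative settings tried.

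Mcm5 contacted its neighbours Tom1 and Hmgxb4 upstream. In a pair of adjacent windows (chr8:77590001-77600000), 35.9 to 40.9 kb away, it held 72, 107 and 87 events where 72.7 were expected, a ratio of 3.66 (3.68 ± 0.0736). The farther window overlaps Tom1, with 32, 59 and 49 events, and the nearer, with 40, 48 and 38, lies in no gene. In the window in Hmgxb4 it held 14, 23 and 14 where 10.3 were expected. The number of called windows of Mcm5 was 3, and 1 without library b. Mcm8, which acts in recombination but is counted here with the origin licensing genes, contacted a window holding Pcna, the sliding clamp itself, 564 kb upstream (chr2:132075001-132080000). It held 1, 5 and 5 events where 0.867 were expected (adjusted p = 0.0132, negative binomial test), and without library c no window of Mcm8 was called. Mcm4 shares its promoter with Prkdc, an end-joining kinase, and contacted a window beside the promoter of Spidr, a recombination scaffold, with 3, 5 and 13 events where 2.25 were expected. Library c carried most of these, and without it 0 windows were called. Mcm7 contacted Mepce and Zcwpw1 (9, 6 and 11 events where 3.45 were expected), with 0 called windows without a or without c. Orc4 contacted Epc2 (5, 7 and 15 events where 4.00 were expected), with 0 without a.

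Fancl, the ubiquitin ligase of the Fanconi pathway, reached Vrk2 and the sequence beside it over chr11:26485001-26505000, 200 to 215 kb downstream. The first 2 of the 4 called windows overlap Vrk2, and the other two, with 66 and 80 events, lie in no gene. The last of them had the lowest adjusted p (0.000466, negative binomial test). Together the 4 windows held 53, 115 and 119 events where 52.8 were expected, a ratio of 5.44 (5.47 ± 0.0852). The sum gave 5.34 to 5.53 by library, while single windows ran from 2.49 to 7.82. Fancf shares its name with Gas2, and its 3 called windows within chr7:59235001-59255000, in Gas2 and Svip, held 14, 24 and 25 events where 9.58 were expected, a ratio of 6.57 (6.50 ± 0.198). Fancc held 6, 5 and 6 events at an exon of Ptch1, the Hedgehog receptor, where 2.67 were expected, and without library c 0 windows were called. Called windows of Fancl numbered 4, with 2 without b, 2 without c and 0 with the dispersion taken over all windows, and Fancf had 3, with 1 without c. The starts of the partner fragments with most Mcm2 and Fancl events are printed on the plus strand to show the far ends of those contacts. The Mcm2 partner begins at chr6:88469484 (335 bases, 17 events) and the Fancl partner at chr11:26501411 (517 bases, 15 events), both in mm9 and in no annotated gene, with the DpnII site in capitals.
Mcm2 partner: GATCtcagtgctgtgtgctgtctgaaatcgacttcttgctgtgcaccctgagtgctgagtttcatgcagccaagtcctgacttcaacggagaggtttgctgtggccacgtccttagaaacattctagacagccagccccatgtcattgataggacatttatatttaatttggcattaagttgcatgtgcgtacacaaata
Fancl partner: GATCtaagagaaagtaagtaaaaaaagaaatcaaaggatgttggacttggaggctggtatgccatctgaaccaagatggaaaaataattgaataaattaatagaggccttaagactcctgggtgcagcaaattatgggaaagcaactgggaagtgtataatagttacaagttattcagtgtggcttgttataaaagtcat

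Around the called windows of 5 of these viewpoints, many uncalled windows were also above expectation. From Rfc3, 158 of 160 windows 200 kb to 1 Mb downstream were above expectation, with a median ratio of 3.52, and 14 of them were called. From Mcm2, 130 of 160 windows in that range downstream were above expectation, and 10 of 159 upstream, with medians of 1.91 and 0.233. From Orc5 the counts were 128 of 160 downstream and 51 of 160 upstream. Nearer the viewpoint, from 10 to 200 kb, Fancl had 33 of 38 windows above expectation downstream and 6 of 38 upstream, and Mcm5 had 5 of 37 downstream and 30 of 38 upstream. The 4 called windows of Fancl lay just beyond, where 37 of 40 windows from 200 to 400 kb downstream, a range chosen after seeing the profile, were above expectation, but 69 of the 160 out to 1 Mb, with a median ratio of 0.796. The calls compare a window with the average over viewpoints at its distance, and not with its neighbours.

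**Figure D2:**
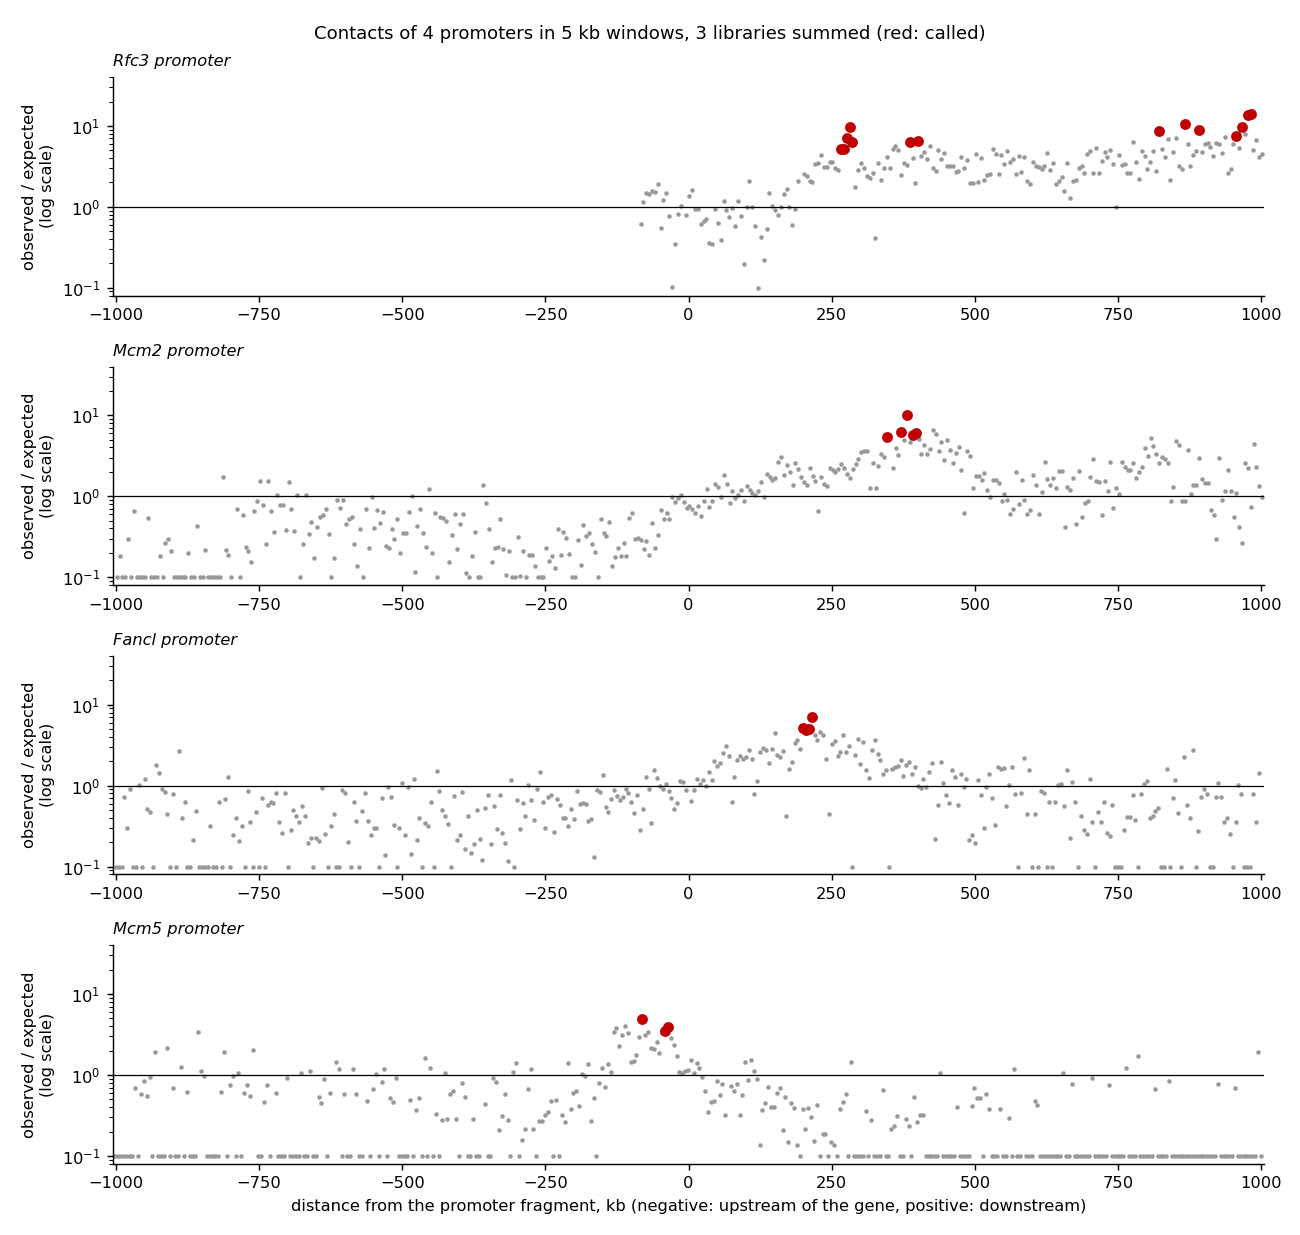
Observed over expected events (log axis, libraries summed, values under 0.1 drawn at 0.1) in 5 kb windows against distance from the viewpoint in kb, positive downstream, for Rfc3, Mcm2, Fancl and Mcm5, with called windows in red. Called windows stand among other windows above 1, on the downstream side for Rfc3, Mcm2 and Fancl and upstream for Mcm5, and the Fancl profile falls again further out, with a median of 0.796 from 200 kb to 1 Mb.

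Among genes of double-strand breaks and the checkpoint, Rad17, the checkpoint clamp loader, contacted Slc30a5 171 to 176 kb upstream with 35, 50 and 43 events where 27.3 were expected. The ratio was 4.68 (4.98 ± 0.796), and 0 windows were called without library a. Rad1, of the checkpoint clamp, contacted Dnajc21 18.1 kb away, the nearest call of these promoters, with 18, 41 and 32 events where 22.2 were expected, and 0 windows were called without b. Rad51b, Rad51ap1 and Rad54b, all of recombination, had 2, 1 and 1 called windows that held 10 to 14 events each, and each had 0 without b and 0 without c. Lig3 contacted Rad51l3, a recombination gene, with 24, 41 and 55 events where 31.9 were expected, and 0 windows were called without c. Rpa3 had 2 windows, in C1galt1 and beside Glcci1, with 22 and 42 events where 3.23 and 7.38 were expected. It had 1 called window without a or b, and 0 with the scaled expectation.

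Lig1 had the largest single value, and this window shares sequence with the viewpoint. The window chr7:13705001-13710000, 157 kb upstream, held 604, 1023 and 1018 events where 15.7 were expected, a ratio of 168 (168 ± 0.611). One fragment, chr7:13708960-13710025, held 2499 of the 2645 events. It carries a stretch of 268 bases (chr7:13709305-13709572) that is present in reverse orientation in the viewpoint (chr7:13864258-13864525), and 535 of the viewpoint's 1427 words of 30 bases are found in the window. A read from inside such a stretch has no unique origin, and the part of the shared sequence in this count was not tested. It was the only one of the 52 called windows to share a word of 30 bases with its viewpoint, compared with 239 of 3677 (6.50%) over all viewpoints. Without it no window of Lig1 was called. The first 150 bases of the shared stretch at the window are printed on the plus strand.
Shared stretch, Lig1 window: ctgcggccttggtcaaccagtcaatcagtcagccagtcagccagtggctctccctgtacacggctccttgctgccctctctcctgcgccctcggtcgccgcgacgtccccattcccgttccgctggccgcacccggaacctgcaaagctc

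Where a called window lay within 10 kb of another captured promoter, the contact could be read from the other end. This gave 19 views of 13 of these promoters, each counted within 5 kb of the promoter from a different captured fragment of the same 3 libraries. All 19 ratios of observed to expected were above 1, and the exact Poisson 95% interval lay above 1 in 18. Over all 83572 ordered pairs of captured promoters 50 kb to 1 Mb apart, the background was 45.9% for the interval and 80.7% for a ratio above 1, with a median ratio of 1.67. The 19 views were chosen because their contact had been called from the other end in the same libraries, so nothing is read from this difference. The highest was Orc5 seen from Dnajc2 and Psmc2, with 4, 18 and 12 events where 4.42 were expected, a ratio of 7.70 (5.33 to 10.8). Mcm2 seen from Sec61a1 had 30, 47 and 33 events, a ratio of 5.97 (4.91 to 7.20). Mcm8 seen from Pcna had 4, 4 and 7 events, a ratio of 3.54 (1.98 to 5.85), and its neighbours Tmem230 and Cds2 gave 3.93 (2.46 to 5.95) and 3.39 (2.42 to 4.62), with intervals that overlap that of Pcna. Mcm4 seen from Spidr had a ratio of 5.17 (3.85 to 6.80), Fancl seen from Vrk2 of 4.39 (3.49 to 5.45) and Mcm5 seen from the Tom1 promoter, which lies 76.2 kb from it beside the called window in Hmgxb4, of 4.42 (3.40 to 5.65). The view of Orc4 from Epc2 rested on 3 events, a ratio of 1.76 (0.362 to 5.14). Rfc3 seen from N4bp2l2 had 0, 9 and 2 events, a ratio of 3.39 (1.69 to 6.07). Intervals cover counting error only.

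**Figure D3:**
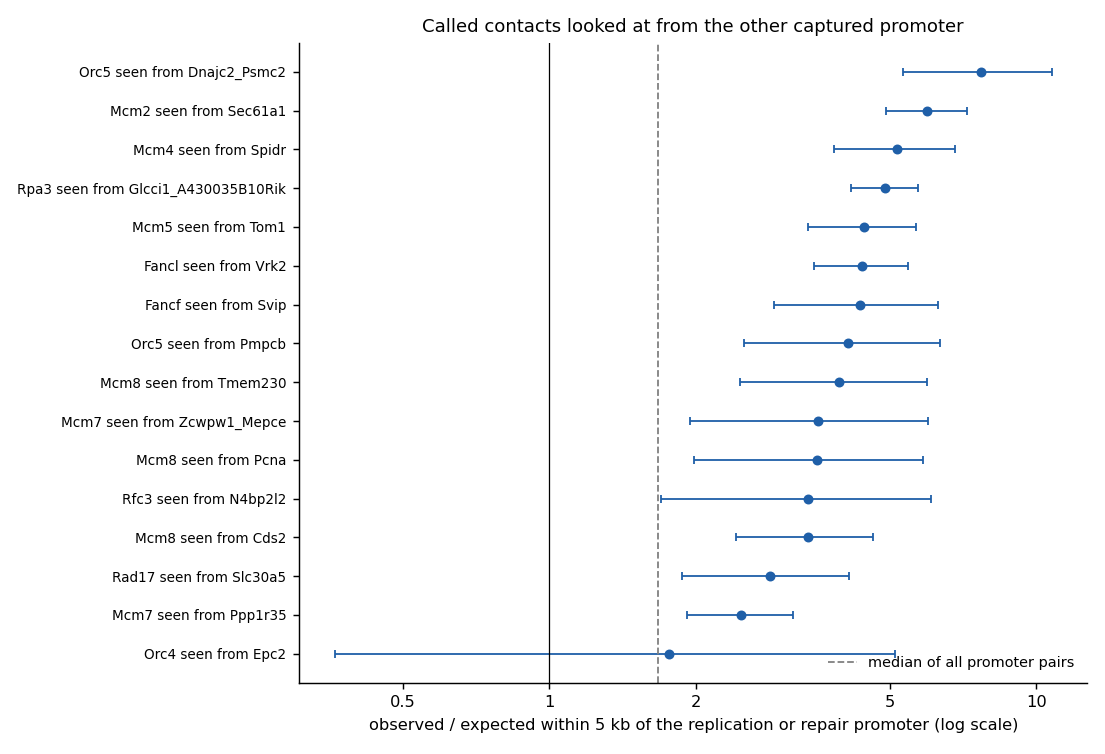
Observed over expected events at each replication or repair promoter as seen from a captured promoter beside its called window (log axis), for 16 of the views, with exact Poisson 95% intervals, a line at 1 and a dashed line at the median of all promoter pairs. All 16 points lie above 1, and Orc4 seen from Epc2 is the 1 interval that crosses it.

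Contact with the surroundings of other captured promoters was measured at fragments 1 to 2 places from them, since captured fragments are themselves left out of the table. Among the 62 viewpoints with at least 5 expected events, the median of observed over expected was 1.66, 1.74 and 1.77 in a, b and c (1.71 ± 0.0680), and 1.48, 1.50 and 1.51 over all 5726. In 48 of 62 (77.4%) the ratio was above 1 in each library, with a background of 67.2%. Fancl was highest with 5.85, 5.22 and 4.33, and Mcm4 was also among the highest with 2.95, 5.86 and 4.04. At the other end Mcm2 had 0.919, 0.957 and 0.888, all below 1 although its distant Sec61a1 contact was strong. Pold4, the small subunit of polymerase delta (1.09, 0.788 and 1.08), and Rad54l2 (0.438, 1.24 and 1.06) lay on both sides of 1. Origin licensing viewpoints had the highest median of the roles, 2.10 over 10 viewpoints, and elongating polymerases, clamp loader, RPA and ligases the lowest, 1.40 over 12.

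Contacts were shared unevenly between the sides of many viewpoints from 10 kb to 1 Mb. Sides follow the strand of the replication or repair gene here, and of the first gene matched in the name at other viewpoints. At names with several genes the direction therefore depends on the gene taken. Such names made up 34.1% of these fragments and 14.0% of all. The median absolute log2 ratio of downstream to upstream was 0.51, and 0.42 over all viewpoints, and the median signed value was −0.19, and 0.05 over all. From 10 to 300 kb the signed value was −0.0484, and −0.12 without library b. More upstream contact in each library was seen at 40 of 78 viewpoints (51.3%, background 39.7%), and more downstream contact at 30 (38.5%, background 46.9%). Mcm2 leaned furthest downstream, with log2 ratios of 1.76, 1.72 and 1.83 (1.77 ± 0.01), followed by Orc5 (1.68, 1.31 and 1.51) and Gins2 (1.31, 1.53 and 1.45). Lig1 leaned furthest upstream (−2.81, −2.64 and −2.71). Without the window of shared sequence it was at −1.28 in the sum of libraries, less far upstream than Mcm5 and Ercc5. Mcm5 followed (−1.49, −1.47 and −1.57), then Ercc5 (−1.38, −1.29 and −1.49). Each of these kept its side in all 3 libraries.

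Contact with the own gene body was compared with the same distances on the other side for 67 genes of at least 10 kb. The median log2 ratio was 0.03, 0.08 and 0.06 in a, b and c, and 0.09, 0.09 and 0.10 over all 5440 genes. The order of the 2 sets was not stable, since with the libraries together the medians were 0.08 and 0.10, but 0.13 and 0.10 with plain counts and 0.12 and 0.10 without library a. It was above 0 in each library for 28 of 67 (41.8%, background 44.7%). Fance was highest (0.84, 0.69 and 1.44), then Mcm4 (1.02, 0.72 and 0.93) and Orc5 (0.84, 0.67 and 0.78). Pole, the catalytic subunit of polymerase epsilon, was lowest (−0.61, −0.63 and −0.81), with Gins3 (−0.75, −0.74 and −0.51) and Ercc5 (−0.47, −0.62 and −0.60). Those 6 genes kept their sign in each library.

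**Figure D4:**
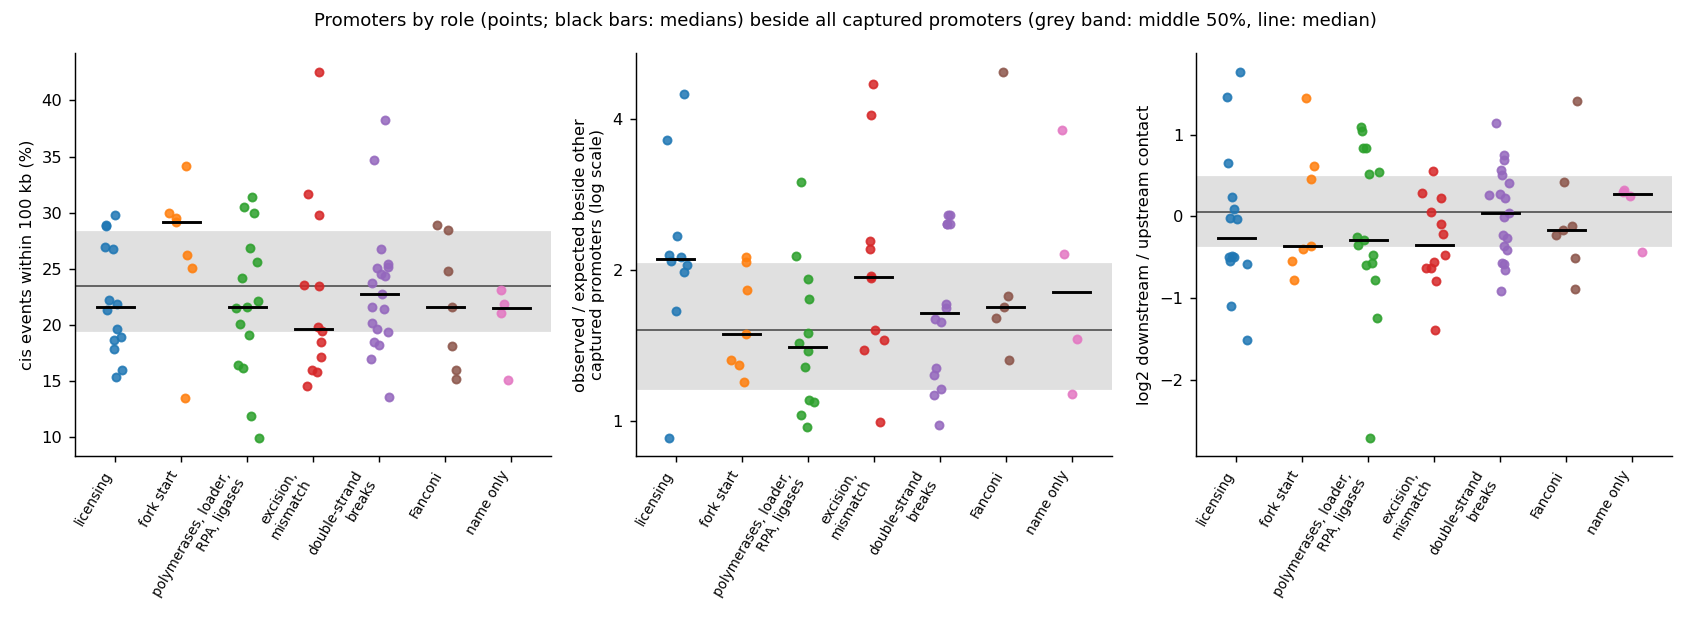
Share of events within 100 kb (percent), ratio of observed to expected events beside other captured promoters (log axis) and log2 ratio of downstream to upstream contact for each tested viewpoint, libraries summed, by role. Short bars are role medians, the grey line and band are the median and middle 50% of all viewpoints, and the roles overlap in every panel, with Rad9a at 38.3% and Lig1 at 9.96% near the ends of the first panel.

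Pairs of these promoters on the same chromosome were few, with 6 pairs within 1 Mb. At the fragments 1 to 2 places from each other they held 19, 24 and 34 events, 77 in all where 64.5 were expected, a ratio of 1.19 (exact Poisson interval 0.942 to 1.49) that ranged from 1.06 to 1.32 with 1 library left out. The ratio was 0.987 at 1 place, 2.41 for pairs over 50 kb apart (19 events) and 1.02 for all fragments within 5 kb, so no direction is read from it. Because the flanks held so few events, the single pairs are given over all fragments within 5 kb, a choice made after seeing the data. Rad18, a ubiquitin ligase of damage tolerance, and Fancd2, the Fanconi protein that is itself ubiquitinated, lie 836 kb apart. Fancd2 held 0, 2 and 8 events at Rad18 (ratio 3.71, exact Poisson interval 1.78 to 6.82) and Rad18 held 3, 2 and 0 at Fancd2 (10.6, 3.45 to 24.8). Both views rest on few events, and each has a library at 0. The Fancd2 fragment is also named for Emc3, so these contacts cannot be assigned to Fancd2 alone. Fancc and Ercc6l2, 384 kb apart, had ratios of 5.16 (3.11 to 8.06, 19 events) and 2.90 (1.62 to 4.78, 15 events). Over all ordered pairs of captured promoters 50 kb to 1 Mb apart, the median ratio within 5 kb was 1.67. The ratio was above 1 in 80.7% of them and the interval in 45.9%, so an interval above 1 is common among promoter pairs. The adjacent excision repair genes Ercc1 and Ercc2, which lie 36.6 kb apart, were not above expectation, with 77 events and a ratio of 0.793 (0.626 to 0.992) from Ercc1 and 12 events and 0.771 (0.399 to 1.35) from Ercc2. Rad9a and Pold4, 30.7 kb apart, had 0.864 (0.732 to 1.01) and 1.06 (0.912 to 1.23). Beyond 1 Mb, Xrcc6 and Poldip3 had 0 events, Pold4 and Pola2 had 0, and Rad9a and Pola2 had 1 in all.

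**Figure D5:**
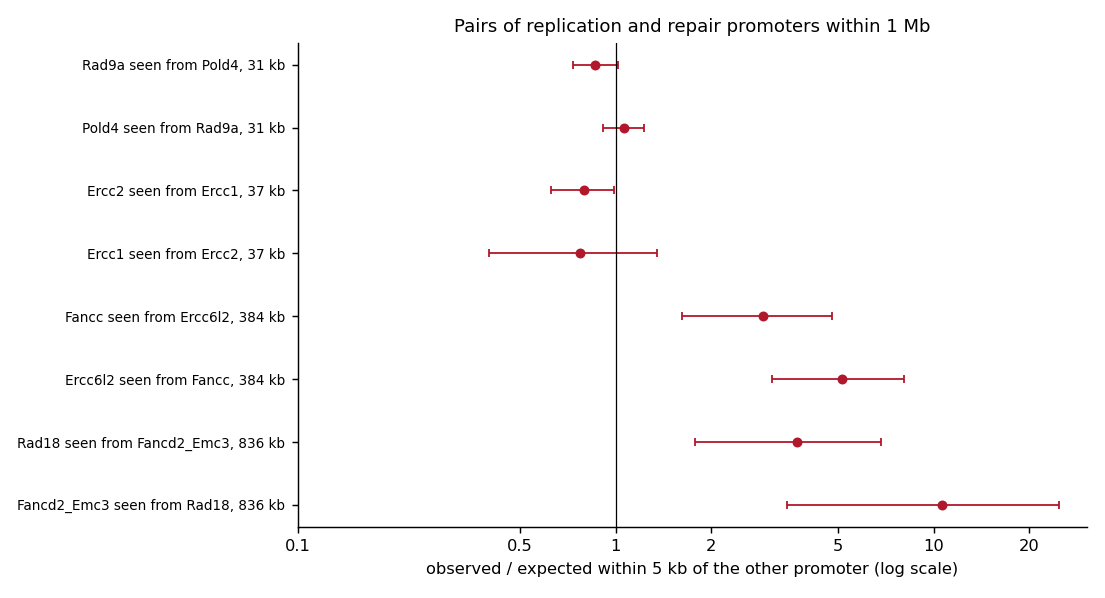
Observed over expected events within 5 kb of one replication or repair promoter as seen from another (log axis), for 4 pairs in both directions, with exact Poisson 95% intervals, ordered by distance. The Ercc1 and Ercc2 pair and the Rad9a and Pold4 pair lie near 1, while Fancc with Ercc6l2 and Rad18 with Fancd2 lie above it. The median over all captured promoter pairs 50 kb to 1 Mb apart was 1.67.

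A list of 90 further replication and repair genes with other names gave the surrounding pathway. It was found at 84 viewpoints, of which 1 is shared with Mcm4, and 81 of the other 83 were tested. A call was made at 23 of 81 (28.4%, background 25%), in 54 windows. The median near share was 23.3% and the median flank ratio 1.72 over 65 viewpoints. The median absolute side log2 ratio was 0.51, as it was for the replication and repair promoters chosen by name. Fen1, the flap nuclease of lagging strands, had the most called windows, 10, followed by the end-joining factor Nhej1 with 6 and the mismatch repair gene Pms1 with 4, of which the one with the lowest adjusted p shares a word of 30 bases with its viewpoint. The window of Nhej1 with the lowest adjusted p held 58, 85 and 73 events where 23.8 were expected. The Fen1 fragment is also named for Tmem258 and the Pms1 fragment for Ormdl1, so their contacts cannot be assigned to 1 gene.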

How the data were processed

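Promoter contacts of ter119+ mouse spleen cells were measured by nuclear-titrated Capture-C in 3 libraries of 1 group. The authors trimmed reads with Trim Galore, aligned them with Bowtie to mm9 (versions not given in the sources used here), removed duplicates and counted ligation events with CCseqBasic, and left captured fragments out of the contacts. The deposited signal is reporters per 100000 cis reporters of each viewpoint and library, scaled by the authors with CaptureCompare. To recover events, each column of a viewpoint was divided by its lowest nonzero value, and 100% of values were whole within 0.01. A viewpoint without any fragment at a single event would be understated. This gave 18230099, 34428035 and 34233560 events in libraries a, b and c. The table columns were not matched to the numbered replicates, nothing says that the libraries came from separate mice, and values then measure the spread between libraries only.

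The members, role lists and tests were chosen with earlier results of these data known. Expected counts came from a distance curve (50 bins, 2.5 kb to 1 Mb) times the total of the viewpoint, and 5 kb windows were tested as described in the text with python 3.11.15, numpy 2.4.6 and scipy 1.17.1. The dispersion was taken by moments per bin with the highest 0.1% left out. The Bayesian calling used by the authors (peaky) was not repeated. Genes were named where they had a called window, formed a pair within 1 Mb, were among the 3 highest or lowest of a measure, were the deepest of their role or had several fragments. RefSeq promoters matched 66 of 84 genes, under the 80% needed, so shares of sequence words use the captured fragments. Some genes and pairs are not reported here one by one, though counts and medians include them. Alternatives covered windows, dispersion, depth, distance, weights and left-out libraries.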

Additional observations from a re-analysis of the deposited data

How the results depend on the processing

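Of 53 alternative values of the summary measures, 26 stayed within a set limit and 27 moved, and the causes were not tested unless stated. The limit was the SD of a and of the mean of b and c, or a factor of 1.5 for counts of called windows. For E2F words it was a binomial interval over genes. An SD of 2 values can be too small a limit. It was 0.0053 for the absolute side ratio, whose medians were 0.477, 0.505 and 0.464 in a, b and c. The counts of 26 and 27 are therefore no measure of how stable the results are. Called windows around the 78 viewpoints, 52 in the text, were 9 with single fragments, 33 with 10 kb windows, 9 with a dispersion over all windows, 149 with the highest 1% left out, 1803 with Poisson counts, 18 at an adjusted p of 0.01 and 27 to 45 without 1 library. The counts over all viewpoints, 3677 in the text, were 999, 2485, 616, 9713, 160088 and 1451 under the first 6 of these. With the expectation scaled to each viewpoint's total (chosen after seeing the data) they were 28 and 2800, with a change at Rfc3 from 14 to 3. A count-weighted curve gave 61, a minimum of 5000 events 50, and leaving out windows with shared sequence 50. Of the 20 viewpoints with a call, 8 kept one without any 1 of the libraries.

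The near share was 42.2% within 1 Mb, a wider distance. It was 21.76% with a minimum of 5000 events, where it was 21.98% over all viewpoints. The slope was −0.85 with count weights, the same as for all viewpoints, and −0.83 from 10 to 300 kb, compared with −0.84 for all. The gene body log2 ratio was 0.13 with plain counts, above the 0.10 of all genes, and 0.0503 to 0.12 without 1 library. The flank ratio was 1.25 at 1 place, 1.92 beyond 50 kb, 1.46 with summed counts and 1.64 to 1.74 without 1 library. Over all viewpoints these values were 1.18, 1.72, 1.39 and 1.47 to 1.50. The absolute side log2 ratio was 0.49 (0.42 over all viewpoints) from 10 to 300 kb and 0.46 (0.42) with plain counts. It was 0.48 (0.41) with a minimum of 5000 events and 0.50 to 0.51 (0.42 to 0.43) without 1 library. Its signed median, −0.19 in the text, was −0.0484 from 10 to 300 kb, −0.21 with plain counts, −0.28 with a minimum of 5000 events and −0.24 to −0.12 without 1 library. The ratio between member pairs was 0.987 at 1 place, 2.41 beyond 50 kb, 1.02 within 5 kb (chosen after seeing the data) and 1.06 to 1.32 without 1 library. E2F words were in 30.3% of the 66 matched RefSeq promoters and in 5.85% of those of all viewpoint genes, or 27.3% and 4.30% with 2 of the words, but the match was too small for a check. No paired analysis was possible because the series has 1 group and the columns carry no replicate numbers.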
